A study of Rattus norvegicus with 4 samples.

Results

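Protein kinase A, the enzyme that cAMP switches on, was followed through 10 genes for its subunits, its inhibitors and its anchors in rat Sertoli cells, which line the seminiferous tubule and nurse its germ cells. Every probe set whose single platform gene symbol was Prkaca, Prkacb, Prkar1a, Prkar2a, Prkar2b, Pkia, Pkig, Akap1, Akap11 or Akap12 was taken, which gave 22 of the 31099 probe sets on the array and 10 of its 14218 named genes. The cells came from 20-day-old male Sprague-Dawley rats and were cultured for 72 h without serum. The 2 groups were cells cultured with cAMP (2 arrays) and cells cultured with no treatment (2 arrays, called control). The sources used here do not give the form or dose of the cAMP. The titles call the arrays of a group biological replicates, but no label tells whether each had its own cell preparation. The p-values therefore measure only how these samples vary, which may be technical.

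Protein kinase A rests as a complex of catalytic subunits held inactive by a dimer of regulatory subunits. Binding of cAMP to the regulatory subunits frees the catalytic subunits, which phosphorylate their targets, the transcription factor CREB among them. Small inhibitor proteins of the PKI family block the free catalytic subunit and carry it out of the nucleus, and A-kinase anchoring proteins tie the complex to particular places in the cell through the regulatory subunits. In Sertoli cells follicle-stimulating hormone acts largely through cAMP and this kinase.

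The values were one-colour array signals that the authors had scaled to a common trimmed mean, and the median signal was 31.3 and 33.7 on the cAMP arrays and 32.9 and 33.7 on the control arrays. Background was set at a signal of 14.2, the highest that any Bacillus control reached. RNA integrity, read as the 3' over 5' ratio of actin, was 1.86 and 1.65 on the cAMP arrays and 1.80 and 2.25 on the control arrays. Of 9 Sertoli cell marker genes with a probe set, 8 lay above background on every array, Wt1, Gata4, Clu and Cldn11 among them. With cAMP Inha, Shbg and Dhh of these were higher and Gata4 was lower. The summed signal of 6 markers of peritubular myoid cells was 166 to 215 on the cAMP arrays and 443 to 600 on the control arrays, a gap carried by Tagln (1.3 and 7.4 with cAMP, 344.5 and 264.3 in control cells). Without Tagln, a split made after its values were seen, the sums of the other 5 overlapped, at 164.2 and 208.0 with cAMP and 255.8 and 178.5 in control cells. In that list Tagln and Synpo2 were lower, Des was higher, and Acta2 and Myh11 did not pass. Cnn1 was too dim to test, at 2.3 and 12.9 with cAMP and 19.2 and 17.6 in control cells. No marker of that list lay at background on every array, but Tagln and Cnn1 did on both cAMP arrays. Of the 5 Leydig cell markers 3 lay at background on every array and 1, Cyp11a1, lay above it on every array (40.6 to 50.9). Of 4 germ cell markers with a probe set, Tnp1 and Prm1 lay at background on every array. The meiotic gene Sycp3 had signals of 1754 to 2258 on the cAMP arrays and 2298 to 2340 on the control arrays, and Sycp1 had 72.6 to 105.7 over the arrays. The summed signal of 5 macrophage markers was 61.5 and 89.6 with cAMP and 43.8 and 29.7 in control cells. Most of that gap lay in Cd68, at 28.1 and 45.2 with cAMP and 4.1 and 6.2 in control cells. The groups overlapped for Csf1r and Aif1, Ptprc and Cd163 lay at background on every array, and all 5 were too dim to test. Of 3 endothelial cell markers with a probe set, Pecam1 and Vwf lay at background on every array. Tek did not pass, at 25.2 and 17.1 with cAMP and 24.9 and 17.4 in control cells. Whether these other cells had a part in the results below was not tested.

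Of the 22 probe sets, 18 were bright enough to be tested, and all 10 genes had at least 1 tested probe set. With cAMP 2 probe sets were higher, 4 were lower and 12 did not pass an adjusted p of 0.05 by limma. Over all 18625 tested probe sets 7.29% were higher and 6.39% lower, 13.7% together. The higher probe sets belonged to the regulatory subunit genes Prkar1a and Prkar2b. The lower ones belonged to the inhibitor gene Pkig and the anchor genes Akap1 and Akap12, while no probe set of Prkaca, Prkacb, Prkar2a, Pkia or Akap11 passed. The median log2 difference, cAMP minus control, was 0.08 over the 18 probe sets and -0.04 over all tested probe sets. The 2 groups' signals did not overlap for 16 of the 18, where 58.2% of all tested probe sets did not. Both cAMP arrays lay above both control arrays for 9 (27.1% of all tested) and below them for 7 (31.1%). In RNA from whole cultures, fewer cells of a type and less RNA per cell cannot be told apart.

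**Figure D1:**
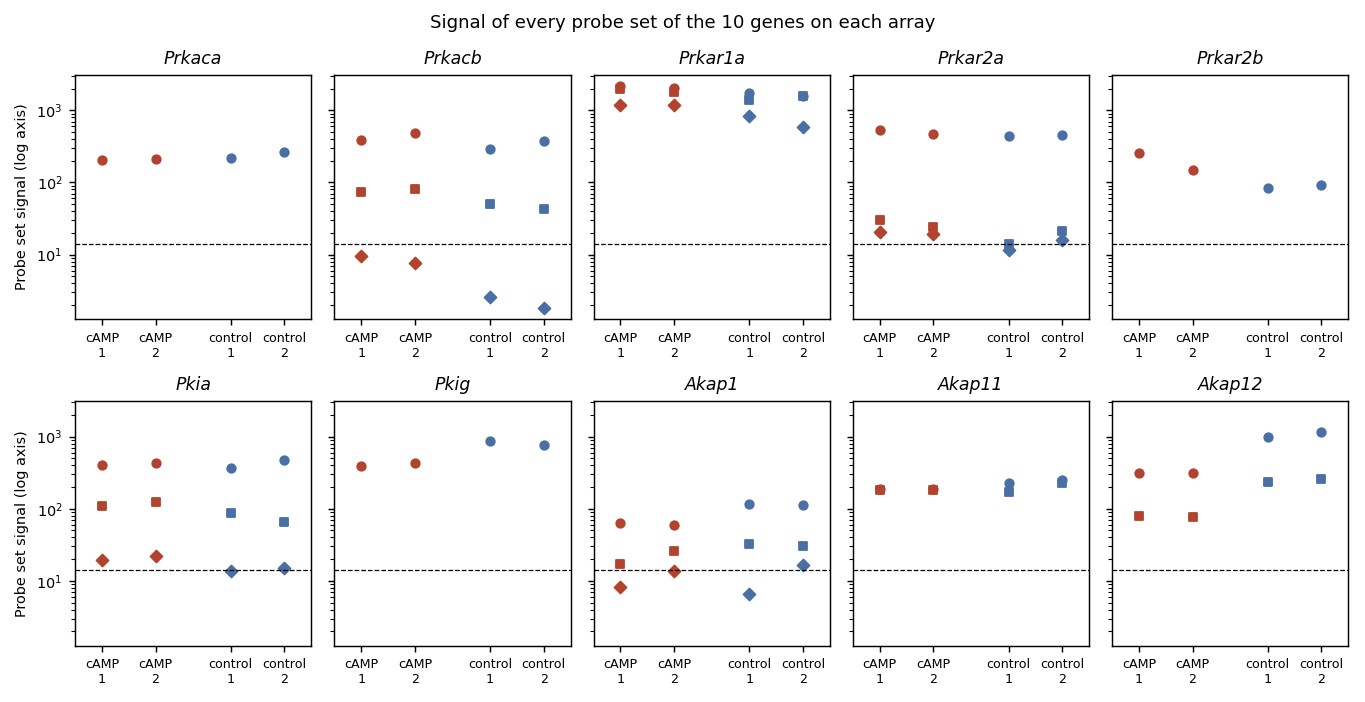
Signal of each of the 22 probe sets on each array, on a log axis, 1 panel a gene, with cAMP arrays in red left of control arrays in blue. Marker shapes tell a gene's probe sets apart (circle, square, diamond from high to low mean), and the dashed line is background at 14.2. The Akap12 and Pkig points lie lower on both cAMP arrays than on both control arrays, and the Prkar2b points lie higher.

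The catalytic subunit genes did not pass the test. Prkaca (Entrez gene 25636), which encodes the main catalytic subunit of most tissues, had signals of 202.2 and 214.1 on the cAMP arrays and 218.7 and 265.4 on the control arrays. Both cAMP values lay below both control values, and the log2 difference on the scale of log2(signal + 16), the scale of every log2 difference here, was -0.20 ± 0.17 (SE, adjusted p by limma = 0.489). Its 95% interval ran from -0.59 to 0.19. Prkacb, which encodes the beta form of the catalytic subunit, had 3 probe sets whose cAMP arrays all lay above their control arrays. The brightest (1371835_at) gave 382.3 and 481.6 on the cAMP arrays and 291.7 and 381.8 on the control arrays, so the groups nearly met. Its log2 difference was 0.35 ± 0.19, with a 95% interval from -0.09 to 0.79. The second Prkacb probe set (1384772_at) gave 74.2 and 80.6 with cAMP and 50.4 and 42.9 in control cells, a log2 difference of 0.58 ± 0.19 (adjusted p by limma = 0.0961). The third lay below background on all 4 arrays, so no fold is given for it.

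Among the regulatory subunits Prkar2b had the largest rise with all 4 arrays in the fit. Without cAMP replicate 1 the log2 difference of Prkar1a probe set 1386905_at was larger, at 0.76 against 0.69. The difference between these genes was not tested. Prkar2b (Entrez gene 24679) encodes RII beta, the type II regulatory subunit found in nerve, fat and endocrine cells, and earlier work in rat Sertoli cells knew its transcript as responsive to cAMP. Its only probe set (1371133_a_at) had signals of 259.0 and 150.2 on the cAMP arrays and 84.0 and 90.9 on the control arrays. The groups did not overlap, but the cAMP arrays stood far apart, at 204.6 ± 76.9 (SD, n = 2) in cAMP-treated cells and 87.5 ± 4.88 in control cells. The log2 difference was 1.05 ± 0.25 (adjusted p by limma = 0.0348). It was 0.69 without cAMP replicate 1 and no longer past the threshold (adjusted p by limma = 0.287), and 1.41 without cAMP replicate 2. The call also ended when dim probe sets were kept in the test and when eBayes ran without its intensity trend (adjusted p by limma = 0.0895 and 0.0522).

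Prkar1a encodes RI alpha, the widely expressed type I regulatory subunit whose loss in humans causes Carney complex. In each of its 3 probe sets both cAMP arrays lay above both control arrays. The dimmest of them (1386905_at) gave 1186 and 1200 with cAMP and 833 and 591.5 in control cells, a rise of 0.75 ± 0.18 on the log2 scale (adjusted p by limma = 0.0309). The brightest (1373951_at) gave 2200 and 2030 with cAMP and 1735 and 1593 in control cells, and its log2 difference of 0.34 ± 0.12 did not pass (adjusted p by limma = 0.105). The remaining one (1388375_at) gave 1962 and 1784 with cAMP and 1399 and 1587 in control cells, again short of the threshold at 0.33 ± 0.13 (adjusted p by limma = 0.142). All 3 probe sets thus agreed in direction and 1 passed, and the difference in size between them was not tested. Of the other pair, 1373951_at passed without control replicate 1 (adjusted p by limma = 0.0266) and 1388375_at without control replicate 2 (0.0439). The call of 1386905_at was lost when either cAMP array was left out (adjusted p by limma = 0.207 without replicate 1 and 0.209 without replicate 2), and control replicates 1 and 2 moved its log2 difference to 0.99 and 0.51 when left out. Keeping dim probe sets in the test, or running eBayes without its trend, ended this call too (adjusted p by limma = 0.0799 and 0.0708).

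Prkar2a, the gene of the widely expressed type II subunit RII alpha, had no called probe set. Its brightest probe set (1373400_at) gave 526.2 and 472.2 with cAMP and 437.8 and 456.5 in control cells, so the groups were separate by a small step. The log2 difference was 0.15 ± 0.14, with a 95% interval from -0.17 to 0.48. The other tested Prkar2a probe set (1375620_at) was dim, at 30.6 and 24.4 with cAMP and 14.0 and 21.2 in control cells, with control replicate 1 at background and a log2 difference of 0.38 ± 0.23. The third fell below the filter on dim probe sets.

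**Figure D2:**
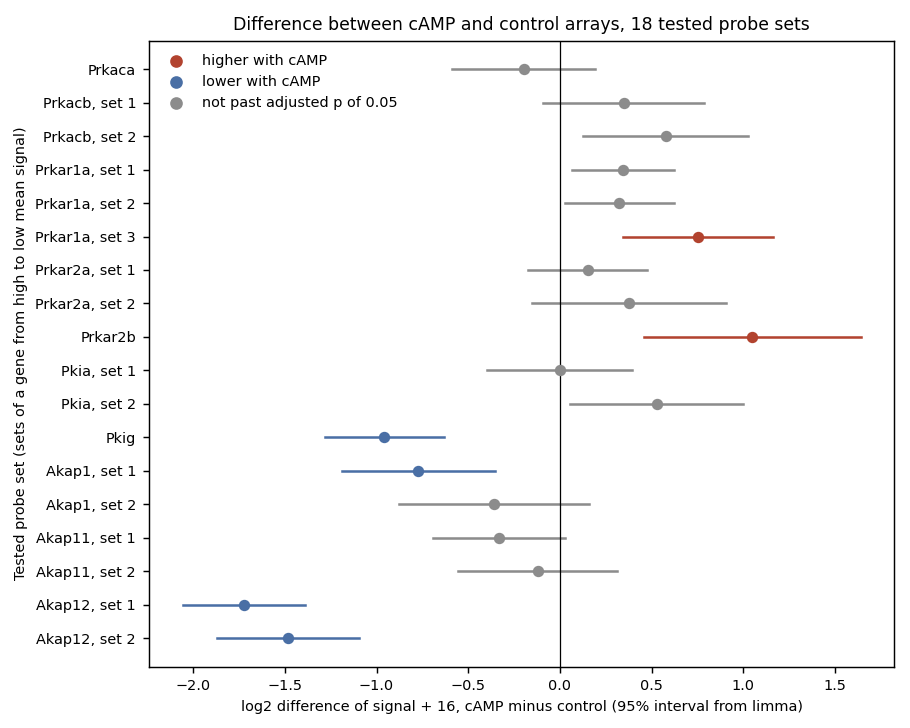
log2 difference of signal + 16, cAMP minus control, for the 18 tested probe sets (points) with their 95% interval from limma (lines). Prkar2b and 1 of 3 Prkar1a probe sets are higher (red), Pkig, 1 Akap1 and both Akap12 probe sets are lower (blue), and the 12 in grey did not pass.

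The DNA before the annotated start sites of the called subunit and anchor genes is shown. The kinase's best known route to transcription runs through a cAMP response element. The RefSeq promoter table of build GRCr8 held 10 start sites for 8 of the 10 genes: Prkaca, Prkacb, Prkar1a, Prkar2b, Pkig with 3 starts, Akap1, Akap11 and Akap12. Windows of 300 bases, 250 before the start and 50 from it onward, were searched on both strands for TGACGTCA (the full cAMP response element), TGACG (its half-site), CANNTG (the E-box bound by bHLH factors) and GGGCGG (the GC box). The full element contains the half-site. Letters matching the E-box and GC box are in capitals below, where the 250 bases before the start are given from 5′ to 3′ along the gene, and neither form of the cAMP response element occurs in these 4.
Prkar1a, chr10:95120287-95120536, plus strand: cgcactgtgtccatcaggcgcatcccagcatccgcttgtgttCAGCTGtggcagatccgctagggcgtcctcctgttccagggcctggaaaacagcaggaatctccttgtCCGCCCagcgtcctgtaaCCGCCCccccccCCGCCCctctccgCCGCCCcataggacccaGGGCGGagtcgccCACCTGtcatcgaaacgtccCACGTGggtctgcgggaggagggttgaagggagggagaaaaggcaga
Prkar2b, chr6:54381412-54381661, minus strand: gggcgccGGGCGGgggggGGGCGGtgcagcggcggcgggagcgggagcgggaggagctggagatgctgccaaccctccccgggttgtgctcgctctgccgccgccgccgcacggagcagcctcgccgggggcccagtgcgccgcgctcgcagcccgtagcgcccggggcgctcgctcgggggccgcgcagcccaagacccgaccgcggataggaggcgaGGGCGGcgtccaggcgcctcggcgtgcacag
Akap1, chr10:74133458-74133707, minus strand: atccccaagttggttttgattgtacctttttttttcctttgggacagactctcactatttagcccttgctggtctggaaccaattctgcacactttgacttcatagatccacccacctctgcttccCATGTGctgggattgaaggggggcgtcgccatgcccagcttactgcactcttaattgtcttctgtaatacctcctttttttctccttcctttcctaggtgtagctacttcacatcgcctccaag
Akap12, chr1:43135265-43135514, plus strand: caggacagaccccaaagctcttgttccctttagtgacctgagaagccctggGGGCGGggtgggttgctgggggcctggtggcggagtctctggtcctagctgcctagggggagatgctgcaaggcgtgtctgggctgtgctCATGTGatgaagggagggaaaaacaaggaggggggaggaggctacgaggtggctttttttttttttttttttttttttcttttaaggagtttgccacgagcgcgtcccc

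The full cAMP response element was in 0 of the 10 windows, and 1.83% of the 33469 windows in the table held it. The half-site was in 4 of 10, those of Prkaca, Prkacb, Akap11 and the third Pkig start, and in 21.2% of all windows. In the Akap11 window an E-box (CACGTG) overlapped a half-site on either side of it. The E-box was in 5 of 10 and in 72.1% of all windows, and the GC box was in 7 of 10 and in 33.1%. Prkar1a had 3 E-boxes, with CACGTG beginning at base -47 from the start, and Prkar2b had none. Akap1 and Akap12 had 1 each, both CATGTG, beginning at -124 and -109. The GC content of the windows ran from 48.0% for Akap1 to 79.0% for Prkar2b, and the median over the table was 51.7%. These are matches of letters only, and no binding was measured. The starts are those of the RefSeq table, and where transcription begins in these cells was not measured. From the annotated start onward the Akap1 bases open with ATG, and those of Prkar2b hold an ATG close to it. The stretches shown for these genes may therefore lie within the transcript.

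Of the inhibitor genes, Pkig was lower and Pkia was not called. Pkig (Entrez gene 266709), which encodes PKI gamma, a broadly expressed inhibitor of the catalytic subunit, had signals of 396.8 and 432.4 on the cAMP arrays and 866.9 and 773.7 on the control arrays (probe set 1371600_at). The arrays of each group lay close together and the groups were far apart, at 414.6 ± 25.2 with cAMP and 820.3 ± 65.9 in control cells (SD, n = 2 each), so the mean signal with cAMP was 0.505 times that of control cells. The log2 difference was -0.96 ± 0.14 (adjusted p by limma = 0.00478). Its call was lost when a cAMP array was left out, at an adjusted p by limma of 0.0866 without cAMP replicate 1 and 0.0553 without cAMP replicate 2, and kept without either control array. The log2 difference stayed between -1.04 and -0.88 whichever array was left out.

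Pkia encodes PKI alpha, the first described member of the family. Its brightest probe set (1373082_at) gave 399.1 and 435.5 with cAMP and 365.1 and 475.8 in control cells, so the cAMP values lay within the control range, with a log2 difference of 0.00 ± 0.17 and a 95% interval from -0.40 to 0.40. The second (1387398_at) gave 109.1 and 123.5 with cAMP and 87.6 and 64.9 in control cells. These groups were separate, with a log2 difference of 0.53 ± 0.20 that did not pass (adjusted p by limma = 0.135), so the 2 tested Pkia probe sets gave different estimates. The second passed when control replicate 1 was left out (0.71, adjusted p by limma = 0.0371). The third was too dim to be tested, at 19.5 and 21.9 with cAMP and 13.6 and 15.1 in control cells.

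The anchors held the largest difference of the 10 genes, a fall of Akap12. Akap12 (Entrez gene 83425) encodes gravin, also called SSeCKS, a scaffold at the cell membrane that binds protein kinase A, protein kinase C and the beta-2 adrenergic receptor. Its brighter probe set (1368869_at) had signals of 310.4 and 313.6 on the cAMP arrays and 985.3 and 1157 on the control arrays. Its dimmer one (1368868_at) gave 78.7 and 77.0 with cAMP and 235.7 and 258.2 in control cells. In both, the cAMP arrays almost coincided and lay far under the control arrays, with mean signals 0.291 and 0.315 times those of control cells. The log2 differences were -1.72 ± 0.14 and -1.49 ± 0.17 (adjusted p by limma = 0.000427 and 0.00154). By size they stood at ranks 155 and 244 among the 1191 probe sets that were lower. They were the 2 probe sets of the 22 that passed whichever array was left out, with adjusted p by limma of at most 0.0293. Of the myoid markers above, Tagln and Synpo2 were lower on the same arrays and Des was higher, and their part in this fall was not tested.

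Akap1 encodes the anchor that holds the kinase on the outer membrane of mitochondria. Its brightest probe set (1383358_at) fell, with 62.9 and 59.6 on the cAMP arrays and 118.0 and 113.8 on the control arrays. Here too the replicates were tight, at 61.3 ± 2.33 with cAMP and 115.9 ± 2.97 in control cells (SD, n = 2 each), and the log2 difference was -0.77 ± 0.18 (adjusted p by limma = 0.0296). A second probe set (1369069_at) was dim, at 17.0 and 25.9 with cAMP and 32.8 and 30.6 in control cells, lower on both cAMP arrays but not past the threshold (-0.36 ± 0.22, adjusted p by limma = 0.340). The third lay close to background with overlapping groups and was not tested. The call was lost without cAMP replicate 1 (adjusted p by limma = 0.214), without cAMP replicate 2 (0.241) and when dim probe sets were kept in the test (0.0666).

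Akap11 encodes AKAP220, an anchor that also binds protein phosphatase 1 and the kinase GSK3. Its first probe set (1368427_at) gave 185.3 and 186.7 with cAMP and 228.4 and 248.7 in control cells, a separation of the groups that did not pass (log2 difference -0.33 ± 0.15, adjusted p by limma = 0.210). The other (1390883_at) gave 180.8 and 179.4 with cAMP and 170.0 and 229.0 in control cells, so the groups overlapped, with a log2 difference of -0.12 ± 0.19.

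Family members that stand in for each other were set side by side as a ratio within each array, using the brightest probe set of each gene. The level of such a ratio carries no meaning between probe sets, and its change from group to group shows unequal change. The log2 ratio of Prkar2b over Prkar2a was -0.98 and -1.56 on the cAMP arrays and -2.18 and -2.14 on the control arrays. That of Prkacb over Prkaca was 0.87 and 1.11 with cAMP and 0.39 and 0.50 in control cells. That of Pkig over Pkia was -0.01 on both cAMP arrays and 1.21 and 0.68 on the control arrays. The groups did not overlap in any of the 3 ratios, and the mean differences were 0.90, 0.55 and -0.96. How often ratios of other gene pairs keep the groups apart was not computed. For single tested probe sets the share was 58.2%. The ratios reuse the signals given above, and the -0.96 is that of Pkig alone, since this Pkia probe set stood at 0.00. The 2 against 2 arrays cannot reach the threshold in an exact permutation test: each two-sided p was 0.333, the smallest the design allows, and 0.333 after adjustment over the 3 ratios.

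**Figure D3:**
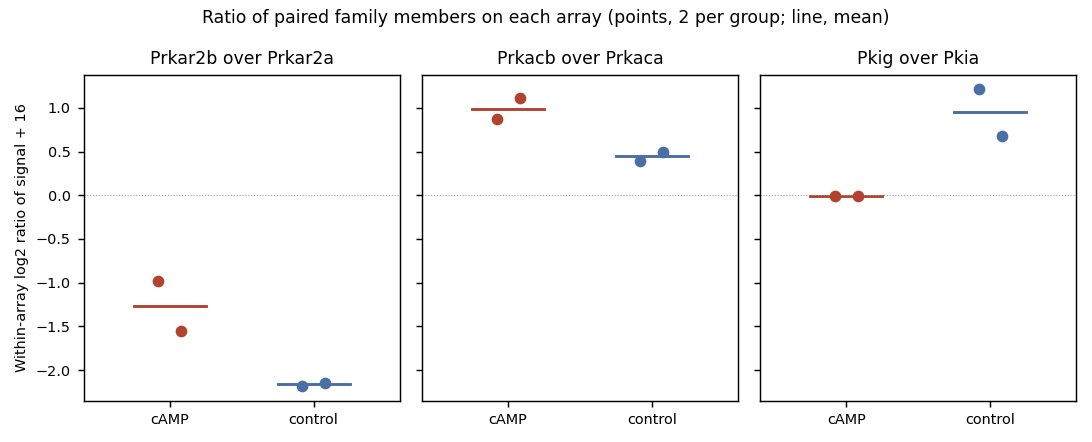
Within-array log2 ratio of signal + 16 for 3 pairs of related genes; points are arrays (2 a group), lines are group means, cAMP in red and control in blue. The ratios of Prkar2b over Prkar2a and of Prkacb over Prkaca are higher on both cAMP arrays, and that of Pkig over Pkia is lower.

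The rest of the family was read from a list of 28 further subunits, inhibitors, anchors and a ligase, with the brightest probe set of each gene. Of these 21 were tested, 4 were too dim for the filter and 3 were not named by any probe set of the annotation used here. With cAMP 4 genes were higher, 0 were lower and 17 did not pass by limma. Over all 10035 tested genes 8.27% were higher and 7.14% lower, 15.4% together. At an unadjusted p under 0.05, 5 of the 21 were higher and 3 lower, where 2585 and 2705 of all 18625 tested probe sets were. The median log2 difference was 0.02, against -0.03 over all tested genes. All 4 calls were anchors, which made up 17 of the 21 tested genes: Ezr, Rdx, Wasf1 and Gpr161. The 3 genes lower at the unadjusted level were anchors too. These were Akap6 (-0.816 ± 0.233), Akap9 (-0.545 ± 0.186) and Cbfa2t3 (-0.507 ± 0.216), with adjusted p by limma of 0.0619, 0.103 and 0.175. Akap5, too dim to test, had 8.3 and 6.5 with cAMP and 22.3 and 22.5 in control cells.

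Ezr encodes ezrin, a linker of membrane and actin that also binds the kinase, and it had 376.9 and 470.0 with cAMP and 175.4 and 94.7 in control cells (log2 difference 1.59 ± 0.27, adjusted p by limma = 0.00878). Radixin (Rdx), a relative of ezrin, had 862.7 and 899.3 with cAMP and 504.4 and 627.7 in control cells (0.63 ± 0.15, adjusted p by limma = 0.0327), and 1 of its 4 other tested probe sets was higher too. Wasf1, the actin regulator WAVE1, had 371.4 and 348.9 with cAMP and 194.5 and 171.5 in control cells (0.92 ± 0.15, adjusted p by limma = 0.00860). Gpr161, a receptor of the primary cilium that binds type I regulatory subunits, had 35.8 and 46.6 with cAMP and 14.9 and 4.6 in control cells (adjusted p by limma = 0.0277). Its control mean lay below background, so the size of the difference is not given. Its other probe set was too dim to test and lay the other way, at 6.2 and 9.1 with cAMP and 15.5 and 14.8 in control cells. Dropping either cAMP array ended all 4 calls. Gpr161 was also lost without control replicate 2, Rdx without the eBayes trend, and both of these when dim probe sets were kept. The remaining subunit genes did not pass, Prkar1b at 0.02 ± 0.20 and Prkx at -0.27 ± 0.22, nor did the inhibitor gene Pkib at -0.24 ± 0.29. Akap4, the anchor of the sperm tail, lay at background on every array. Pja2, a ubiquitin ligase that targets regulatory subunits, had 766.0 and 808.6 with cAMP and 582.6 and 588.2 in control cells and did not pass (0.42 ± 0.13, adjusted p by limma = 0.0749).

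Upstream and downstream of the kinase, a list of 65 genes of the cAMP pathway had 40 tested members, 19 that were too dim and 6 that no probe set of the annotation used here names. Of the tested genes 6 were higher, 1 was lower and 33 did not pass, where 8.27% of all tested genes were higher and 7.14% lower, and the median log2 difference was 0.02. Upstream of the kinase, none of 5 tested G protein genes and neither of the 2 tested cyclase genes passed by limma. A further 6 cyclase genes were too dim to test. At an unadjusted p under 0.05 the G protein genes gave 1 higher and 1 lower and the cyclases 0. Of all 18625 tested probe sets 2585 were higher and 2705 lower at that level. Gnas, the stimulatory G protein gene, had 3101 and 3088 with cAMP and 3380 and 3091 in control cells (-0.06 ± 0.11). Of 8 tested phosphodiesterase genes, whose enzymes break cyclic nucleotides down, 4 were higher: Pde10a, Pde4d, Pde4b and Pde8a, by 4.84 ± 0.20, 4.70 ± 0.17, 2.88 ± 0.17 and 1.52 ± 0.16 on the log2 scale, each at its brightest probe set. The 2 other tested Pde4d probe sets were higher as well, 1 of them by less, at 1.59 ± 0.20. The other Pde8a probe set did not pass (adjusted p by limma = 0.0946). The control mean lay below background for the remaining Pde4d probe set (11.6) and the other ones of Pde8a (14) and Pde10a (9.75). The sizes of their differences are therefore not given. The other probe sets of Pde4b and Pde10a were higher too, that of Pde4b by 2.95 ± 0.22. At their brightest probe sets these 4 passed with any 1 array left out, and control replicate 2 lay below background for Pde10a.

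Among the kinase's substrates and their partners, Crem was higher and Crebbp lower. Crem, a relative of CREB with an inducible repressor form, had 656.4 and 601.4 with cAMP and 242.1 and 140.3 in control cells (1.68 ± 0.24, adjusted p by limma = 0.00429), and its 4 other tested probe sets were higher as well. Crebbp, the coactivator that binds phosphorylated CREB, had 385.2 and 332.8 with cAMP and 516.3 and 583.7 in control cells (-0.59 ± 0.15, adjusted p by limma = 0.0420), and its 2 other tested probe sets did not pass. Creb1 had 221.4 and 272.0 with cAMP and 271.2 and 431.5 in control cells and did not pass (-0.46 ± 0.23). Of 9 tested genes of phosphatases and their regulators only Ppp2ca, the catalytic subunit of phosphatase 2A, passed, where 15.4% of all tested genes did. Ppp2ca had 416.1 and 402.5 with cAMP and 199.6 and 192.5 in control cells (1.00 ± 0.15, adjusted p by limma = 0.00465). The 2 tested genes of other cAMP sensors did not pass: Rapgef3, which encodes EPAC1, at -0.78 ± 0.23 and Popdc2 at -0.63 ± 0.19 (adjusted p by limma = 0.0648 and 0.0708). Crem and Ppp2ca were lost without cAMP replicate 1, Ppp2ca also without cAMP replicate 2, and Crebbp without either of them or control replicate 2, with dim probe sets kept and without the eBayes trend.

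**Figure D4:**
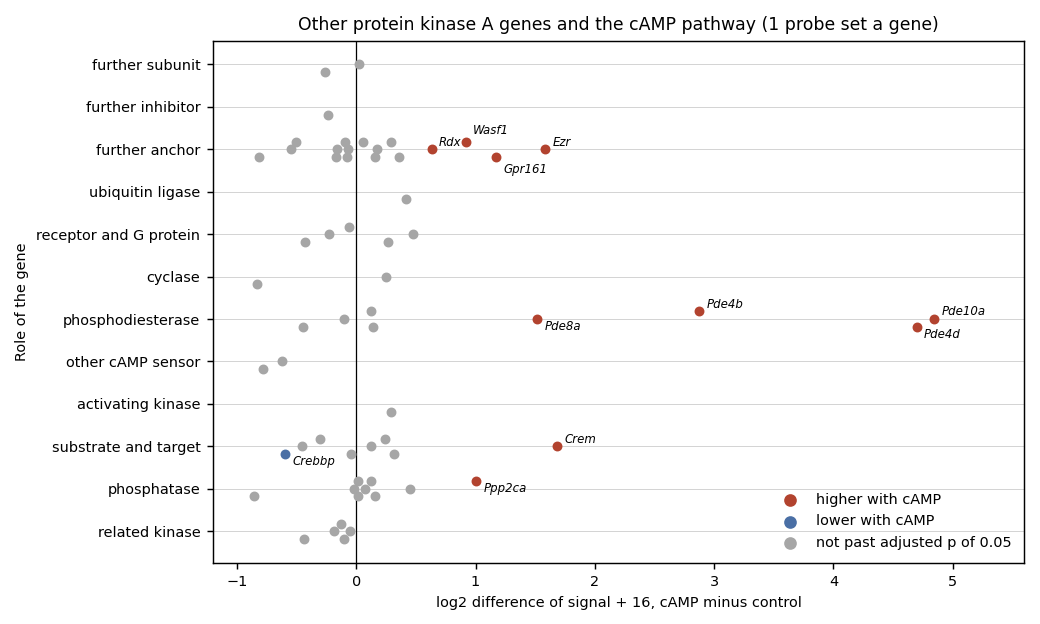
log2 difference of signal + 16, cAMP minus control, of 61 tested genes of the kinase family and the cAMP pathway (1 point a gene, brightest probe set), in rows by role. Red genes are higher, the blue one is lower and grey ones did not pass; the 4 phosphodiesterases reach from 1.52 to 4.84, while most other points lie within 1 of 0.

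**Figure D5:**
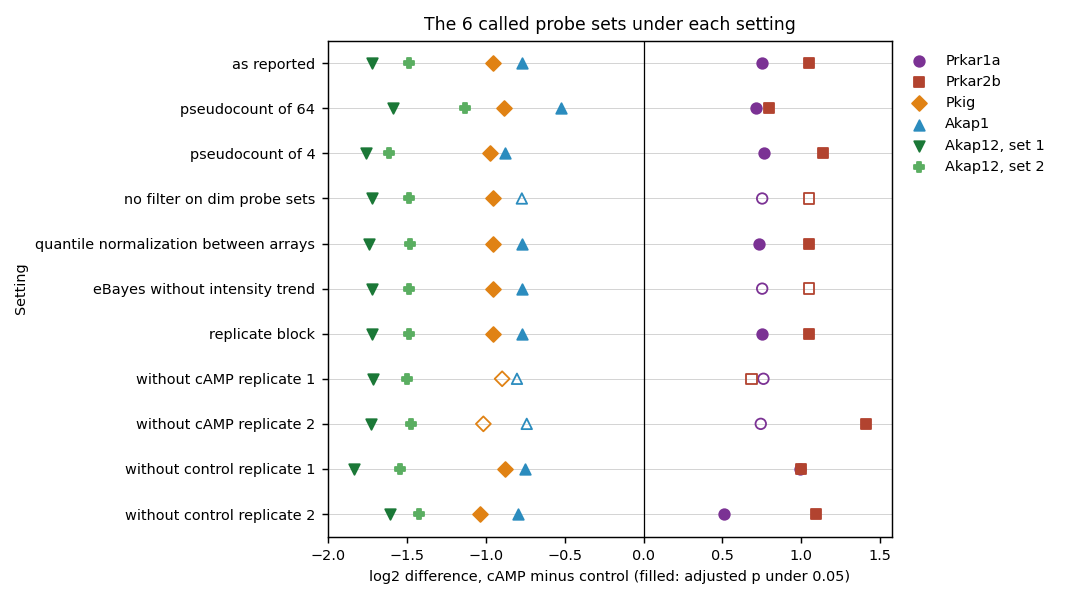
log2 difference, cAMP minus control, of the 6 called probe sets as reported and under 10 other settings; a filled marker has an adjusted p under 0.05. Both Akap12 probe sets are filled throughout, while Pkig, Akap1, Prkar1a and Prkar2b lose the call in at least 1 setting with the direction kept.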

How the data were processed

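Total RNA of the cultures was labelled with biotin and hybridised to Affymetrix rat arrays, 1 array a sample. The authors deposited 1 linear intensity for each probe set and array. The submitters' processing notes name GCOS and MAS5, and the sources used here give neither version nor settings. The mean without the lowest and highest 2% of values was 125 on all 4 arrays, so they had been scaled alike before deposit, and no further normalization was applied. Genes were named from the platform annotation, in which all 10 symbols matched the RefSeq gene table, and symbols of other genes were brought up to date through it.

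From the intensities log2(signal + 16) was computed. Probe sets other than the 57 controls were tested if their mean log2 value reached the 40th percentile (5.10). The 18625 that remained were fitted with lmFit and trended eBayes of limma 3.58.1 (R 4.3.3, two-sided tests), with Benjamini-Hochberg adjustment over all of them and a threshold of 0.05. The fit was tested on simulated data with independent normal noise, which cannot tell whether the replicates here are independent. Higher, lower, rose and fell with a count refer to that threshold. Differences are cAMP minus control ± SE, and the number of arrays limits the precision. All member probe sets are named; of the other lists the genes that passed are named, and the further ones were chosen after their values were seen. The members and lists were chosen with earlier results of these data known.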

Additional observations from a re-analysis of the deposited data

How the results depend on the processing

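Across 10 alternatives (pseudocounts of 64 and 4, no filter, quantile normalization, eBayes without the trend, the replicate block and leaving out each array), the 6 called probe sets kept their direction, and both of Akap12 kept the call. Without the filter 0 member probe sets were higher by limma (7 at an unadjusted p under 0.05), as were 0 without the trend (4). Without the filter 2 other kinase genes were higher and 0 pathway genes were lower (6 unadjusted). Over all 31042 probe sets then tested 873 were higher and 725 lower (2988 and 3141 unadjusted). Without the trend 0 pathway genes were lower (4 unadjusted). Over all 18625 probe sets without the trend, 2493 were higher and 2617 lower unadjusted. Leaving out 1 array gave 0 to 4 higher and 2 to 4 lower member probe sets, 0 to 5 higher and 0 to 2 lower other kinase genes, 4 to 8 higher and 0 to 5 lower pathway genes, and 408 to 2419 higher and 305 to 2371 lower probe sets in all. The low ends were reached without cAMP replicate 1. Without cAMP replicate 2 the counts of lower member probe sets, of higher and lower other kinase genes and of lower pathway genes were as low, and without control replicate 2 so were those of lower other kinase and lower pathway genes. The high ends were reached without control replicate 1. The array left alone in its group was assumed to vary like the other group. The within-array ratios kept their sign when an array was left out, from 0.61 to 1.18 for Prkar2b over Prkar2a, 0.42 to 0.67 for Prkacb over Prkaca and -1.22 to -0.69 for Pkig over Pkia. Sign changes occurred in 2 probe sets that were not called. Pkia 1373082_at, at 0.00, stood at 0.00 with a pseudocount of 4, at 0.001 under quantile normalization, 0.18 without control replicate 2 and 0.061 without cAMP replicate 1, and Akap11 1390883_at, at -0.12, stood at 0.076 without control replicate 2. When each array was left out in turn, Pkia ranged from -0.18 to 0.18 and Akap11 from -0.32 to 0.076. The cause of these shifts was not tested.

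With the replicate number as a block, 1 other kinase gene (Akap6) and 3 pathway genes (Crebbp, Ppp1r1b and Rapgef3) were lower. The member counts stayed at 2 higher and 4 lower. Over all 18625 tested probe sets 1540 were higher and 1495 lower with the block, against 1358 and 1191 without it. The deviations of same-numbered arrays correlated at 0.163 across probe sets. With 2 pairs and no label for a shared preparation, the numbers were not taken as pairing the arrays.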
